A study of Mus musculus with 2 samples.

Results

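Actin cytoskeleton and Pdlim genes were described in sorted mouse keratinocytes that lack the Mediator subunit Med1 in the keratin 14 lineage. Members were chosen by gene symbol, with earlier results of these data known: the PDZ and LIM domain (Pdlim) family, actins, the Arpc subunits of the Arp2/3 complex, tropomyosins, myosin II chains, filament crosslinkers, calponins, turnover factors, formins, focal adhesion and membrane linkers, and the transcription factor gene Srf. The array carried 89 probes of 52 such genes, of 25697 probes and 16593 genes in all. The Med1cKO group was 1 pool of back skin keratinocytes from 3 mice with floxed MED1 alleles (labelled MED1 fl/fl Cre), in which Cre driven by Krt14 removes Med1 from keratin 14 expressing cells. The CON group was 1 pool from 3 littermates with the same floxed alleles and no Cre (labelled MED1 fl/fl C57BL6). Both pools were sorted for integrin alpha6 and against CD34, and the labels give neither age nor sex. A protocol field of the same samples describes whole skin RNA from each mouse, and the sorted, pooled origin given by the design text and the cell type label was used.

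Each pool was hybridized to 1 Illumina array, so no difference below has a replicate error or a test, and precision is limited by having 1 array a group. Of all probes, 42.7% were detected on the Med1cKO array and 40.8% on the CON array, at a detection p below 0.01. The brightest Med1 probe had an intensity of 452 in the Med1cKO pool, against 794 in the CON pool (log2 ratio -0.997), and the deleted exons are not given, so this probe cannot check the deletion. All 6 basal keratinocyte markers were detected in both pools, with log2 ratios between -0.48 (Krt5, the partner keratin of Krt14) and 0.09 (Krt14). Itga6, which encodes the integrin used for sorting, had -0.13. Intensities are the deposited, non-normalized values. Log2 ratios and folds are Med1cKO relative to CON after background correction and quantile normalization, with each gene represented by its brightest probe. Where a probe was detected on 1 array only, "at least" gives a fold against the dimmest detected level of the other array. It depends on the background correction, so the fold obtained without that correction, which is smaller, is given beside it. In bulk RNA, fewer cells of a type and less RNA per cell cannot be told apart.

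Actin filaments give keratinocytes their shape, pull on cell contacts and drive migration. The Arp2/3 complex and formins nucleate filaments, profilin and cofilin turn them over, tropomyosins and calponins bind along them, alpha-actinins crosslink them, and myosin II contracts them. Pdlim proteins carry a PDZ domain that binds alpha-actinin and 1 or more LIM domains, and sit on stress fibres or muscle Z-discs. Many actin genes are targets of serum response factor (Srf), whose coactivators, the MRTF proteins, are held back by free actin monomers, so that filament assembly feeds back on actin gene transcription.

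Most of these genes were higher in the Med1cKO pool, usually by small amounts. Of the 52 genes, 38 were detected, 37 of them in both pools, 1 (Actg1) in the Med1cKO pool only and none in the CON pool only. The measured log2 ratio was above 0 for 30 of the 38, while this held for 45.6% of all 7955 detected genes. The median log2 ratio of the 38 was 0.28, and that of all detected genes was -0.04. At least 2-fold higher were 4 members (10.5% of 38), Pdlim7, Pdlim3, Cfl1 and Acta2, where 3.95% of all detected genes were. A further 4, Pdlim5, Tpm2, Arpc1b and Msn, were between 1.5-fold and 2-fold higher, which gives 8 members (21.1%) at least 1.5-fold higher, where 9.25% of all detected genes were. No member was 1.5-fold or 2-fold lower, where 8.28% and 1.81% of all detected genes were. The lowest ratio was that of Actn4 (-0.35). When the detected genes were split by level into 10 equal bins, the brightest bin held 12 members, and 9 of these were above 0, where 46.4% of all genes in that bin were.

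**Figure D1:**
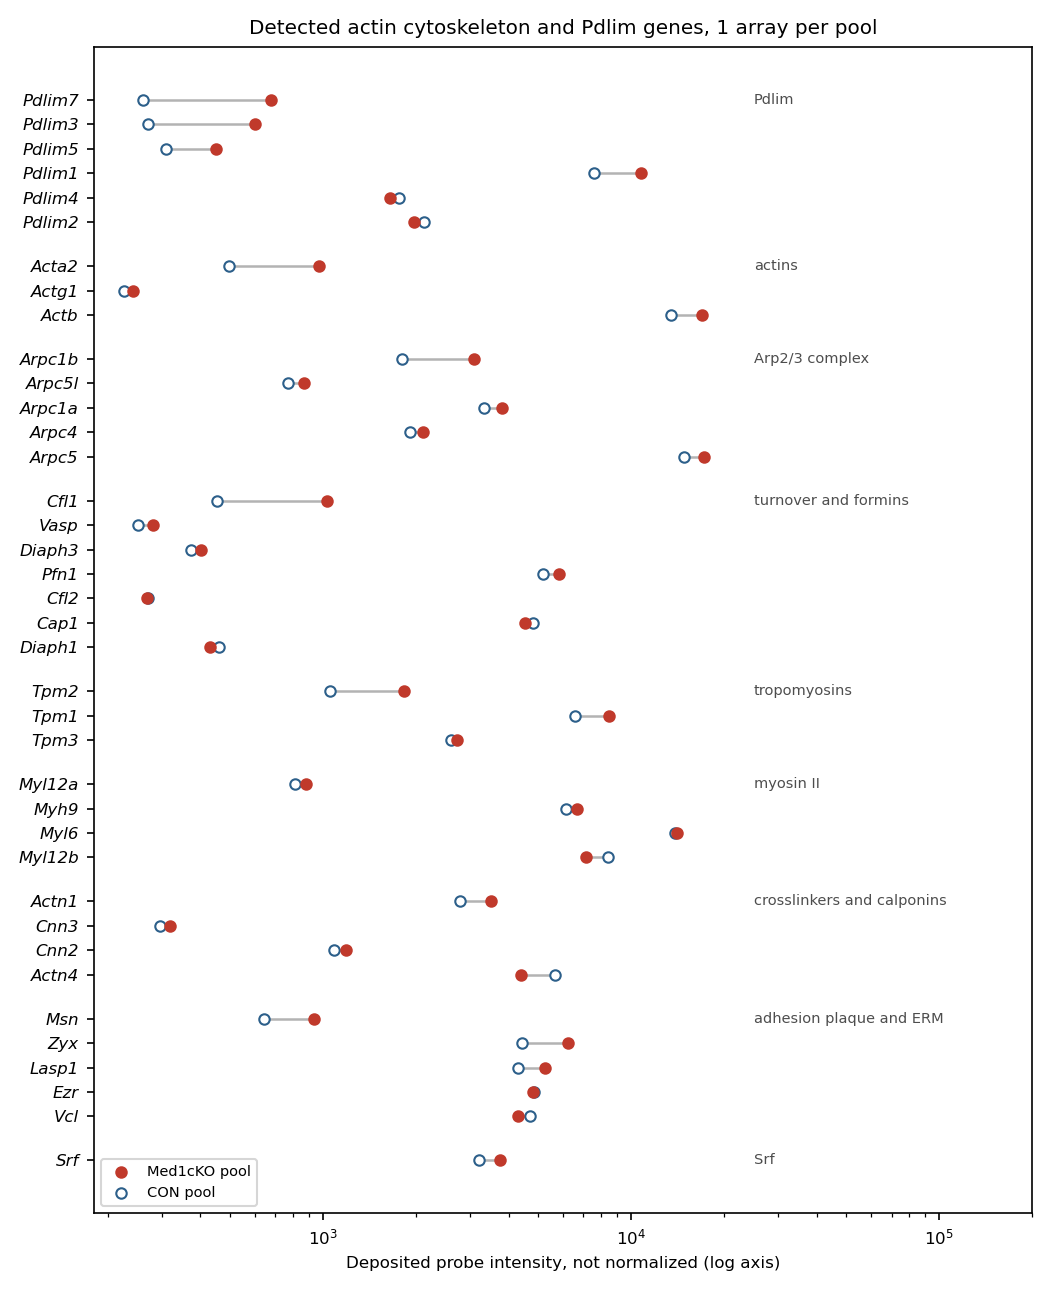
Deposited intensity (log axis) of the 38 detected members on the Med1cKO array (filled) and the CON array (open), by role, each gene by its brightest probe. The widest gaps are those of Pdlim7 (679 in Med1cKO and 259.8 in CON), Pdlim3, Cfl1 (1034 in Med1cKO and 454 in CON) and Acta2, and the CON value of Actg1 was not detected. Levels of different genes are not comparable, since each rests on its own probe.

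The Pdlim family split into members that were higher in the Med1cKO pool and members that were level by their brightest probe. All 6 were detected in both pools, with a median log2 ratio of 0.75. Pdlim7 (Enigma), an adaptor with several LIM domains, had an intensity of 679 in the Med1cKO pool and 259.8 in the CON pool, the highest ratio of all members (5.13-fold higher, log2 ratio 2.36). Pdlim3 (ALP), known from muscle Z-discs, had 604 in Med1cKO and 271 in CON (3.98-fold higher, log2 ratio 1.99). In CON both genes lay close to the dimmest detected intensity of that array (239). Without background correction Pdlim7 was 2.71-fold and Pdlim3 2.31-fold higher. A dimmer Pdlim3 probe read 279 in Med1cKO and 177 in CON, where it was not detected, and was at least 1.57-fold higher (at least 1.21-fold without background correction). Pdlim7 had 1 probe only.

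Pdlim5 (ENH), which tethers protein kinase C to alpha-actinin in muscle, had intensities of 449 in the Med1cKO pool and 310.4 in the CON pool (1.996-fold higher, log2 ratio 0.997, so just below the 2-fold line). Its other probe detected in both pools had a log2 ratio of 0.39, and another was detected in Med1cKO only and at least 1.08-fold higher (at least 1.03-fold with background left in). The 4 Pdlim5 probes are not all annotated to the same transcript. Without background correction the brightest was 1.51-fold higher. Pdlim1 (CLP36), which binds alpha-actinin on stress fibres, had 10763 in Med1cKO and 7596 in CON (1.42-fold higher, log2 ratio 0.50).

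Pdlim4 (RIL) and Pdlim2 (Mystique), a regulator of NF-kB and Stat signalling, showed no such excess. Pdlim4 had intensities of 1645 in the Med1cKO pool and 1758 in the CON pool and equal normalized levels (1.00-fold). Pdlim2 had 1972 in Med1cKO and 2123 in CON by its brightest probe (log2 ratio -0.04), and its 3 dimmer probes were lower in Med1cKO, with log2 ratios of -0.32, -0.44 and -0.48. By the brightest probes, the log2 ratios of the family thus ran from -0.04 to 2.36.

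The actins differed between gene and probe. Acta2, the smooth muscle alpha-actin, had an intensity of 969.9 in the Med1cKO pool and 495 in the CON pool (2.52-fold higher, log2 ratio 1.33). A dimmer Acta2 probe read 305 in Med1cKO and 208 in CON, where it was not detected, and was at least 1.89-fold higher (at least 1.32-fold without background correction). The remaining Acta2 probes were detected in neither pool. Actb, the cytoplasmic beta-actin, had 17029 in Med1cKO and 13476 in CON by its brightest probe (log2 ratio 0.31). Its other 4 probes, all detected in both pools, had log2 ratios of 0.99, 0.00, -0.59 and -0.84, so they did not give Actb a single direction, and their mean with the brightest was -0.03. The only probe of Actg1, the cytoplasmic gamma-actin, was near background with 242 in Med1cKO and 226 in CON. It was at least 1.14-fold higher (at least 1.05-fold without background correction). A weak probe and a low transcript level cannot be told apart here, so these intensities do not give the level of Actg1. Actin genes share near-identical coding sequence and have processed pseudogenes, so which transcripts these probes bind is uncertain.

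**Figure D2:**
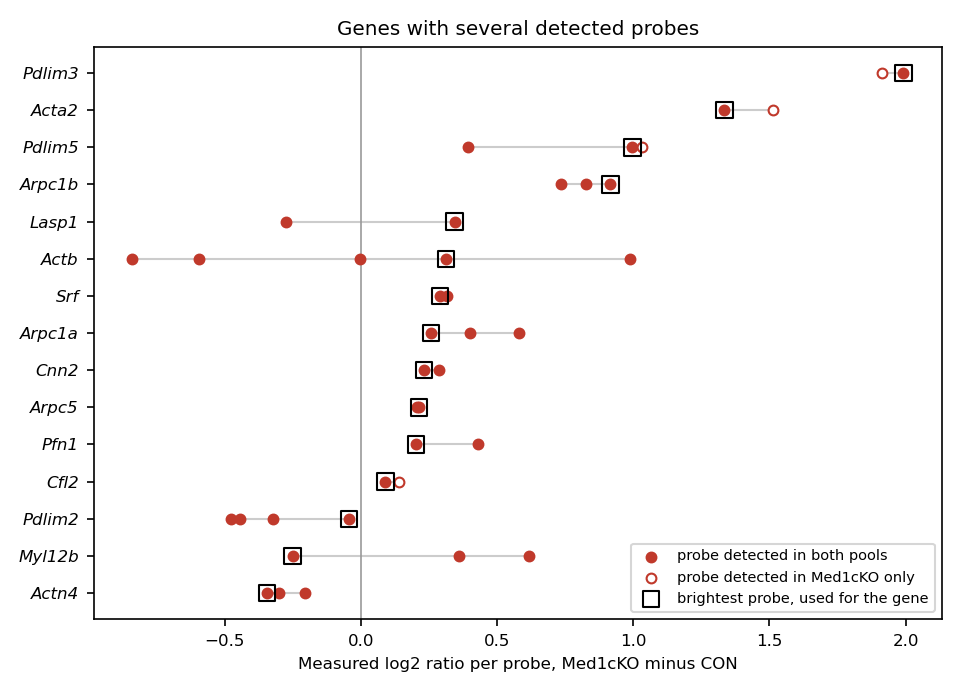
Measured log2 ratio (Med1cKO minus CON) of every detected probe of members with several detected probes. Filled points were detected in both pools, open points in Med1cKO only, and squares mark the brightest probe. Probes of Arpc1b, Srf and Actn4 lie close together, while those of Actb run from -0.84 to 0.99.

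Promoters of the 4 members that were at least 2-fold higher, and of Srf, are printed below, because Srf is known to bind many actin gene promoters at a motif called the CArG box. Windows run from 250 bases before to 50 after the RefSeq start (GRCm38.p6, 5′ to 3′ on the gene's strand), and 46 of the 52 members had a window. Capitals mark matches to the CArG box, to a looser CArG box in which 1 of the 6 core bases is C or G, to TATAAA, to GGGCGG (a GC box) and to GGAATG (a TEAD site), searched on both strands, so a match on the other strand is capitalized as its reverse complement. The looser CArG box was added after the Acta2 window had been read.
Pdlim7 (chr13:55513397-55513696, minus strand): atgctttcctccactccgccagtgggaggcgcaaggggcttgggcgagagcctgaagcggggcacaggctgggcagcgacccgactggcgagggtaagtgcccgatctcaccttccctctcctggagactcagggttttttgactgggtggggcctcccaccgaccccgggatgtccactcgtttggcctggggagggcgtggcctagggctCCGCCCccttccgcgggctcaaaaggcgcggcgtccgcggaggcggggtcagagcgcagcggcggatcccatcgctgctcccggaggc
Pdlim3 (chr8:45885237-45885536, plus strand): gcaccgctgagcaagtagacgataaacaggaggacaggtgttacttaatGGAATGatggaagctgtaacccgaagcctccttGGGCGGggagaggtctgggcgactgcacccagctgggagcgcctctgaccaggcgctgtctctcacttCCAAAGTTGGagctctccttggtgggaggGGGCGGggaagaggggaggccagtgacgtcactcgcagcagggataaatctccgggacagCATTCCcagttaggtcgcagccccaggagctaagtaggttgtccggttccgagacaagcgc
Cfl1 (chr19:5490205-5490504, plus strand): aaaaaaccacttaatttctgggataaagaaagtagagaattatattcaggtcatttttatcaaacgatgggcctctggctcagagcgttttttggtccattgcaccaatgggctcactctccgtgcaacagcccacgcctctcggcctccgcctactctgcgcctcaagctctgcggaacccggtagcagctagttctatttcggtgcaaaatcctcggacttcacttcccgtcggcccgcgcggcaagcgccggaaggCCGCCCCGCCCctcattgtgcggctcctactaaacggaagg
Acta2 (chr19:34255324-34255623, minus strand): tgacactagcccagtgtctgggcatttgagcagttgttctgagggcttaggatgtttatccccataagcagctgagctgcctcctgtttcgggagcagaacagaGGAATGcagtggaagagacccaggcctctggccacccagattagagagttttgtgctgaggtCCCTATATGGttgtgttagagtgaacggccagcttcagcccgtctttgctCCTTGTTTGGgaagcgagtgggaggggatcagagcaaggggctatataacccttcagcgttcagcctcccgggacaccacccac
Srf (chr17:46556113-46556412, minus strand): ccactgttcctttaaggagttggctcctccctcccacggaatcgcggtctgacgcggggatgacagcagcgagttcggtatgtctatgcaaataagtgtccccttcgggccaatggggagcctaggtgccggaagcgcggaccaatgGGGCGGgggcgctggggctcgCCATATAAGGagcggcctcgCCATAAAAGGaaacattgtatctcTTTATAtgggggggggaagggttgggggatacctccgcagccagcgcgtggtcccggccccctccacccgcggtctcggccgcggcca
The Srf window holds 2 CArG boxes, with first bases at -82 and -62 from the start. The Acta2 window holds 2 of the looser form at -84 and -34, and Pdlim3 1 at -100. In Pdlim7 and Cfl1 neither form is in this window, and the capitals are GC boxes, of which the 2 in Cfl1 overlap.

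CArG boxes were found in the windows of 8 members (15.4% of their 52 windows), where 1.63% of all 32851 promoter windows held one. The looser form was in 15.4% of member windows and 8.5% of all windows, GGGCGG in 59.6% and 35.7%, GGAATG in 21.2% and 14.7%, and TATAAA in 9.62% and 13.6%. Besides Srf, the CArG box members were Actg1, Vcl, Cnn2, Myl6, Arpc4 and the undetected Myl3 and Myl7. The sites of 4 of them are shown with their flanks, the CArG box in capitals, since they are the detected members other than Srf with a site and a full flank on both sides.
Actg1 (chr11:120348566-120348595, minus strand): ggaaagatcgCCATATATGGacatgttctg
Vcl (chr14:20929161-20929190, plus strand): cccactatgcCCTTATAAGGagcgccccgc
Cnn2 (chr10:79988534-79988563, plus strand): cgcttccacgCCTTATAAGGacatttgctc
Myl6 (chr10:128493040-128493069, minus strand): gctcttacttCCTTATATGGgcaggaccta
Of the detected members with a CArG box, none was 1.5-fold different. Their measured log2 ratios were 0.42 (Actg1, with a bound of 0.18), 0.29 (Srf), 0.23 (Cnn2), 0.22 (Arpc4), 0.00 (Myl6) and -0.08 (Vcl). Besides Acta2 and Pdlim3, the looser form was in windows of Pdlim4, Tpm3, Myl12a, Arpc1a and Vasp. None of these was 1.5-fold different, with log2 ratios of 0.00, 0.15, 0.22, 0.26 and 0.48. A match describes the letters of this window and not binding.

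Srf itself had intensities of 3758 in the Med1cKO pool and 3219 in the CON pool (log2 ratio 0.29), and its other probe gave 0.32. Of the Srf cofactors and immediate targets, 9 of 10 genes with a probe were detected, and their median log2 ratio was 0.05. The 2-fold line was passed upward by 1 of them and downward by 1. Egr2, an early response gene, had 6719 in Med1cKO and 2983 in CON (2.35-fold higher). Ccn2, a matricellular gene that also answers to YAP, had 1961 in Med1cKO and 3927 in CON (2-fold lower, or 1.93-fold without background correction). Junb had a log2 ratio of 0.61. The coactivator gene Mrtfb was detected in CON only, with 188 in Med1cKO and 262 in CON, so it was near background. It was at least 1.46-fold lower in Med1cKO (at least 1.15-fold without background correction). Mrtfa was detected in neither pool.

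Among the nucleators, all 5 Arpc genes with a probe had ratios above 0, with a median log2 ratio of 0.26. Actr3, another Arp2/3 subunit gene that is not a member, had 7812 in the Med1cKO pool and 8256 in the CON pool (log2 ratio -0.10). Arpc1b, a WD-repeat subunit abundant in blood cells, stood at the top with 3092 in the Med1cKO pool and 1799 in the CON pool (1.89-fold higher, log2 ratio 0.92). Its other probes had log2 ratios of 0.83 and 0.73, so all 3 Arpc1b probes were higher in Med1cKO. Its alternative subunit Arpc1a had 3813 in Med1cKO and 3324 in CON (log2 ratio 0.26), and Arpc5 was lowest at 0.21. The formin Diaph1 had 431 in Med1cKO and 459 in CON (log2 ratio -0.04), and Diaph3 had a log2 ratio of 0.28.

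Of the turnover factors and formins, Cfl1 alone was at least 1.5-fold different. Cfl1, the non-muscle cofilin that severs filaments, had an intensity of 1034 in the Med1cKO pool and 454 in the CON pool (3.10-fold higher, log2 ratio 1.63), from the only Cfl1 probe on the array. Which transcripts this probe binds was not checked. Cfl2, the muscle cofilin, had 269 in Med1cKO and 269.8 in CON (log2 ratio 0.09). The monomer-binding genes Pfn1 (profilin) and Cap1 had log2 ratios of 0.20 and -0.04, and Vasp, which elongates filaments at adhesions, 0.48. Cap2 was not detected.

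Filament-binding and contractile genes differed by family. Tpm2, the beta-tropomyosin, had 1837 in the Med1cKO pool and 1052 in the CON pool (1.98-fold higher, log2 ratio 0.99), while Tpm1 and Tpm3 had log2 ratios of 0.36 and 0.15. The remaining 2 Tpm2 probes were detected in neither pool. The detected myosin II genes had a median of 0.05. Myh9, the main non-muscle heavy chain, had 6663 in Med1cKO and 6165 in CON (log2 ratio 0.10), and the essential light chain gene Myl6 had 0.00. The regulatory light chain gene Myl12a had 881 in Med1cKO and 812 in CON (log2 ratio 0.22). Its close relative Myl12b had 7139 in Med1cKO and 8431 in CON by its brightest probe (log2 ratio -0.25), but its other probes gave 0.36 and 0.62, so its direction depends on the probe.

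Among crosslinkers, calponins and adhesion genes Msn alone passed 1.5-fold. The alpha-actinin genes went opposite ways. Actn1 had 3503 in the Med1cKO pool and 2792 in the CON pool (log2 ratio 0.41), and Actn4 had 4389.9 in Med1cKO and 5645 in CON (log2 ratio -0.35), with all 3 Actn4 probes below 0. Msn (moesin), which links filaments to the membrane and is strongly expressed in leukocytes, had 932 in Med1cKO and 646 in CON (1.67-fold higher, log2 ratio 0.74), whereas its epithelial relative Ezr (ezrin) had a log2 ratio of 0.04. Zyx (zyxin), a focal adhesion LIM protein, had 6224 in Med1cKO and 4419 in CON (log2 ratio 0.53). Vcl (vinculin) had 4306 in Med1cKO and 4697 in CON (log2 ratio -0.08).

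**Figure D3:**
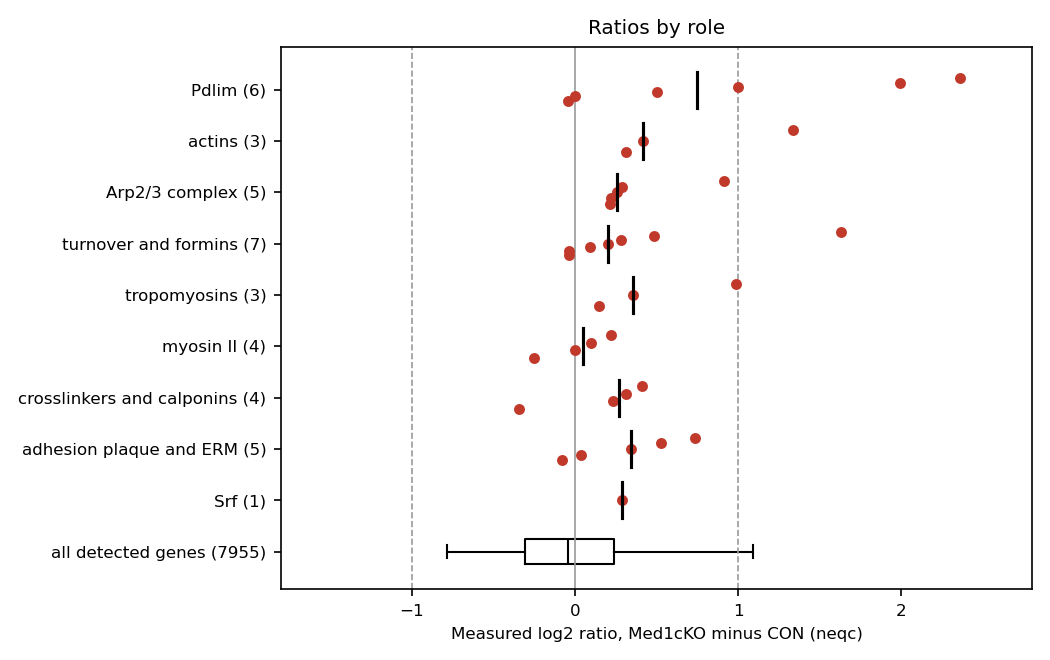
Measured log2 ratio (Med1cKO minus CON) of each detected member by role, with the number of genes in brackets, short black lines at the group medians, and all 7955 detected genes as a box (quartiles and median, whiskers at the 5th and 95th percentiles). Dashed lines mark 2-fold. Pdlim has the highest group median with over 1 member (0.75), myosin II the lowest (0.05), and all detected genes have -0.04.

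Ratios were also divided by a robust SD, the scaled median absolute deviation of ratios in the same level bin, which measures how genes of like brightness scatter and says nothing of replicate error. Pdlim7 reached 4.65 times this SD, Cfl1 4.08, Pdlim3 3.92, Acta2 3.33, Arpc1b 2.90 and Tpm2 2.86 times. Pdlim5, Pdlim1, Zyx and Msn reached 1.96, 2.16, 2.27 and 1.84 times. The other detected members reached at most 1.54 times (Tpm1), and most of them, such as Arpc1a (0.89) and Pfn1 (0.87), lay below this SD. The size of the folds depends on the background correction, and all 8 members at least 1.5-fold higher had a smaller fold without it, by 1.04 to 1.90 times. The same 4 genes, Pdlim7, Pdlim3, Cfl1 and Acta2, remained at least 2-fold higher without it and with the authors' normalized values. Cyclic loess or median scaling in place of quantile normalization added Pdlim5 and Tpm2 to them. Of all detected genes, 4.49% were at least 2-fold higher under cyclic loess and 4.29% under median scaling.

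**Figure D4:**
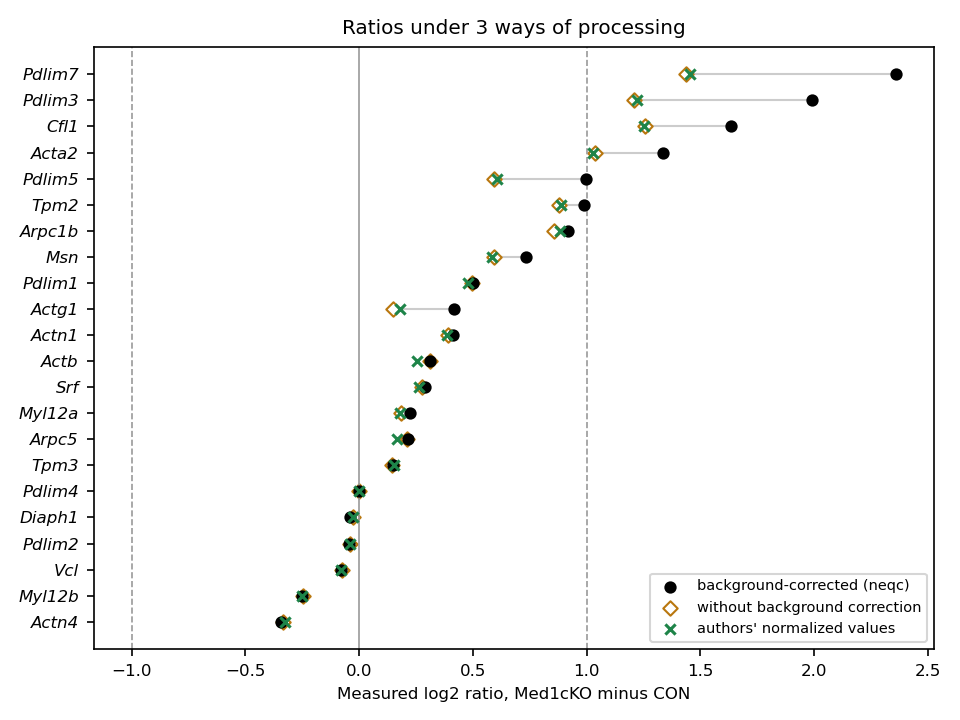
Measured log2 ratio (Med1cKO minus CON) of the 22 members named by rule, after background correction (black), without it (diamonds) and from the authors' normalized values (crosses). Dashed lines mark 2-fold. Pdlim7 moves from 2.36 to 1.44 without background correction, and bright genes such as Pdlim1 (0.50 and 0.49) hardly move.

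Values of muscle and stromal markers are set beside those of Acta2, Tpm2 and Pdlim3, which muscle also expresses. Of 10 members counted here as smooth or striated muscle forms, 9 were detected in neither pool, namely Tagln (transgelin), Cnn1 (calponin 1), Actn2, Actn3, Myl1, Myl2, Myl3, Myl4 and Myl7, and Acta2 was detected. Cfl2, Pdlim3 and Tpm2, which muscle also expresses, are not among these 10 and were detected in both pools. The 14 undetected members, which further include Tln1, Myh10, Myl10, Myl6b and Cap2, had intensities of 145.2 to 211.5 in Med1cKO and 143.7 to 234.1 in CON. Of 8 smooth muscle markers outside the members, Myh11, Des, Synm, Lmod1, Actg2, Mylk and Synpo2 were not detected. Smtn (smoothelin) was, with 1358 in the Med1cKO pool and 763 in the CON pool (2.09-fold higher, or 1.87-fold without background correction). Summed background-corrected levels of the 8 were 1420 in Med1cKO and 733 in CON. Smtn made up 1227 of this sum in Med1cKO and 579 in CON. The other 7, none of them detected, summed to 193 in Med1cKO and 154 in CON. Of 10 skeletal muscle markers with a probe, 2 were detected, Tnni2 (log2 ratio 0.61) and Mylpf (at least 1.32-fold higher, the bound being 1.12-fold with background left in). Summed levels of the 10, of which 8 were not detected, were 355 in Med1cKO and 245 in CON. Without Tnni2, the brightest, they were 232 in Med1cKO and 170 in CON. That remainder still holds Mylpf, a dim gene with intensities of 259 in Med1cKO and 209 in CON (measured log2 ratio 0.98). Of 4 pericyte markers Cspg4 alone was detected (log2 ratio -0.18), and no endothelial marker of 4 was.

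**Figure D5:**
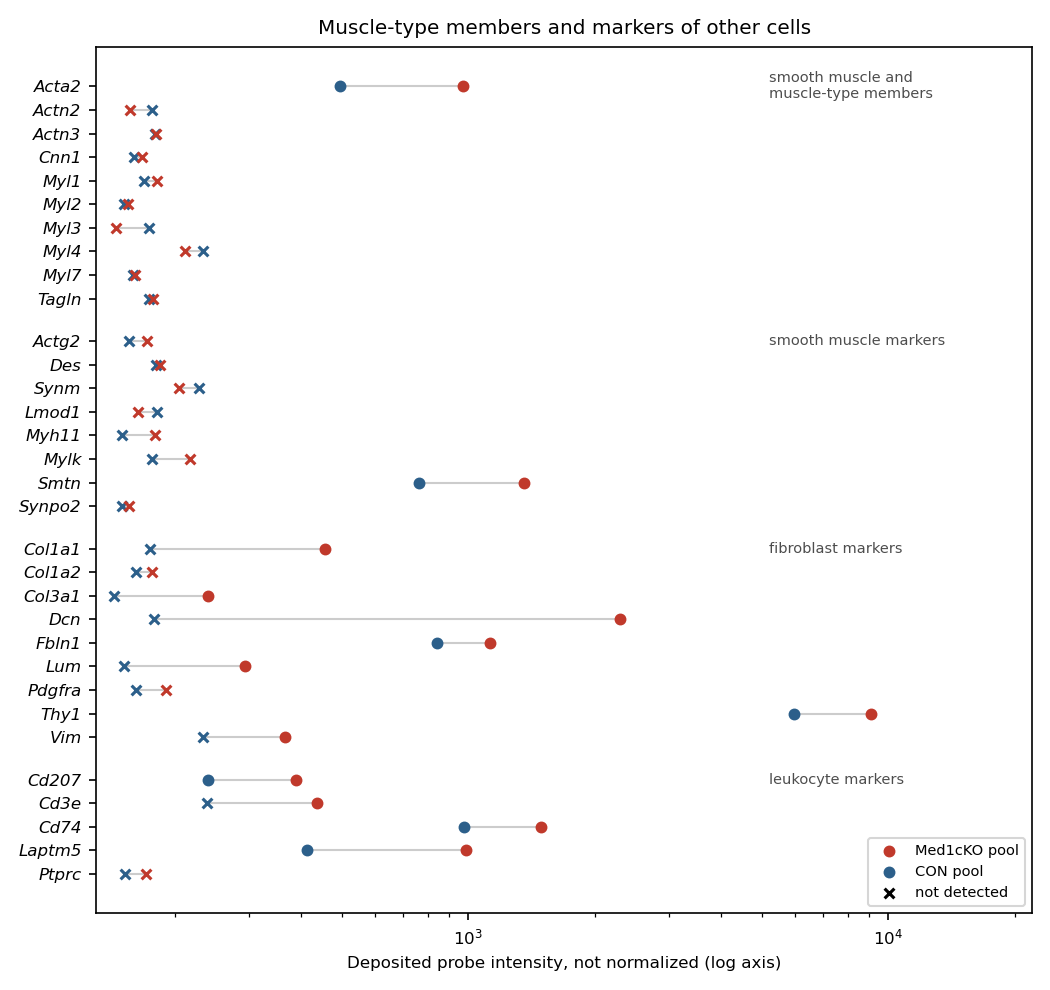
Deposited intensity (log axis) of muscle-type members and of smooth muscle, fibroblast and leukocyte markers in the Med1cKO pool (red) and the CON pool (blue), with crosses where not detected. Acta2 is detected in both pools while Tagln, Cnn1 and Myh11 are not, and all detected fibroblast and leukocyte markers lie higher in Med1cKO.

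Fibroblast and leukocyte markers were higher in the Med1cKO pool, beside the higher actin genes. Of 9 fibroblast markers 7 were detected, 5 of them in Med1cKO only, and 3 were at least 2-fold higher (1, Dcn, without background correction). Dcn (decorin) had 2297 in Med1cKO and 178 in CON, at least 25.97-fold higher after background correction, Col1a1 was at least 3.73-fold and Vim at least 2.62-fold higher, and Pdgfra and Col1a2 were not detected. Without background correction these bounds were 10.03-fold, 1.99-fold and 1.59-fold. Summed levels of the 9 were 12785 in Med1cKO and 6571 in CON. Thy1, the brightest, made up 8831 of this sum in Med1cKO and 5764 in CON, and the other 8 summed to 3954 in Med1cKO and 806 in CON. Thy1 had an intensity of 5975 in CON, where Dcn, Col1a1, Col3a1, Lum and Vim were not detected, so its level there does not follow theirs. Of 5 leukocyte markers 4 were detected and 3 at least 2-fold higher (1, Laptm5, without background correction). The T cell gene Cd3e was at least 3.49-fold, Laptm5 3.38-fold and the Langerhans cell gene Cd207 2.87-fold higher. Without background correction Cd3e was at least 1.90-fold, Laptm5 2.49-fold and Cd207 1.68-fold higher. Ptprc was not detected, and summed levels of the 5 were 2744 in Med1cKO and 1178 in CON, or 1370 in Med1cKO and 388 in CON without the brightest (Cd74). A melanocyte marker, Dct of 4, was detected in Med1cKO only, with 226 there and 175 in CON. The Med1cKO value lay below the dimmest detected intensity of CON (239), so its bound gave no difference. The part of these cells in the ratios of Acta2, Tpm2, Pdlim3, Pdlim7, Arpc1b and Msn was not tested.

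Of 30 other actin-binding genes 23 were detected, and their median log2 ratio was 0.00. At least 2-fold higher were 2, and 0 were 2-fold lower. Fscn1 (fascin), which bundles filaments in protrusions, had 493 in the Med1cKO pool and 306 in the CON pool (2.35-fold higher). Coro1a, a coronin of blood cells, had 419 in Med1cKO and 287 in CON (2.10-fold higher), and Marcks had a log2 ratio of 0.93. Without background correction neither Fscn1 (1.68-fold) nor Coro1a (1.52-fold) was 2-fold higher.

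Of 17 other LIM protein genes 11 were detected, and their median log2 ratio was 0.04. The only one past 2-fold was lower in the Med1cKO pool. Csrp2, a LIM-only protein of muscle and fibroblasts, had 499 in the Med1cKO pool and 1440 in the CON pool (log2 ratio -1.79), lower where Pdlim3 and Pdlim7 were higher. Fhl2, an Srf-responsive LIM protein, was detected in Med1cKO only, with 288 there and 169 in CON, and was at least 1.68-fold higher (at least 1.25-fold without background correction). Limd1 had a log2 ratio of -0.54.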

How the data were processed

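RNA of 2 sorted keratinocyte pools (Med1cKO and CON, 1 array each) was measured on Illumina arrays. Per the file headers, the deposited intensity values are non-normalized, with a detection p-value per probe and array, per the same deposited file. The submitters' processing notes name GenomeStudio 2011.1. A deposited series table holds intensity values normalized by the authors on a linear scale. The normalization method is not stated there or in the labels, its medians were 198.7 (Med1cKO) and 198.4 (CON), and it was used as an alternative.

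Intensities were processed with neqc of limma 3.58.1 in R 4.3.3, which corrects background inferred from detection p-values (mean 163, SD 17 on Med1cKO; mean 168, SD 21.9 on CON), adds an offset of 16, applies quantile normalization and takes log2. Ratios and figures were made in Python 3.11.15 (matplotlib 3.10.9, pandas 2.3.3, numpy 2.4.6). The platform annotation gives 1 gene symbol to 23978 of the 25697 probes, several to 0 and none to 1719. A RefSeq table (GRCm38.p6) matched, by Entrez ID, 23962 probes, all 89 member probes among them, and changed no symbol. Of the symbols asked for, the filamins, Tagln2 and Myh14 had no probe in this annotation and were not analysed here. A gene is its brightest probe by mean level. In fold counts, a gene detected on 1 array only has a bound in place of a ratio, set against the lowest detected level of the other array (log2 6.20 on Med1cKO, 6.41 on CON), written "at least". Medians, counts above 0 and figures use its measured ratio. With bounds, the median of the detected members was 0.27. Level bins hold equal numbers of detected genes, 10 in all. The steps were tested on simulated data in which only probes well above background were changed. That test does not cover levels as low as those of Pdlim3 and Pdlim7 in CON.

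The members, lists and rules were chosen with earlier results of these data known. Named members are those at least 1.5-fold different, all Pdlim genes, Actb, Actg1, Srf, and the highest and lowest of each role. Of the 4 pathway lists, 1 is not reported here. In each list up to 3 genes with the largest absolute ratios are named, and others named were chosen after their values were seen.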

Additional observations from a re-analysis of the deposited data

How the results depend on the processing

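The 4 members at least 2-fold higher stayed so, joined by Pdlim5 and Tpm2 (6 in all) under cyclic loess and under median scaling. This, the count of 0 members 2-fold lower and the positive median of the members (0.20 to 0.34, against 0.28 as reported) held under all 9 alternatives: no background correction, cyclic loess, median scaling, the authors' normalized values, an offset of 50, a detection p below 0.05, genes detected on both arrays, no detection filter, and the mean of detected probes. Over all genes the 2-fold counts depend on the background correction, with 314 higher and 144 lower as reported, 155 and 44 without it, and 163 and 46 with the authors' values. Under cyclic loess they were 357 and 113 (4.49% higher), and under median scaling 341 and 123 (4.29% higher, against 3.95% as reported). Genes of the 4 pathway lists at least 2-fold different in either direction numbered 7, but 3 without background correction and 3 with the authors' values. Averaging detected probes turned Actb to -0.03 and Myl12b to 0.24, because their probes disagree. It also moved Pdlim2 from -0.04 to -0.32. Of 12 members with several probes detected in both pools, 3 had probes on both sides of 0. These were Actb, Myl12b and Lasp1, whose brightest probe gave a log2 ratio of 0.34 and whose other detected probe gave -0.28. Without a detection filter the median of the pericyte markers was 0.021, not -0.18. Pdlim7 ranged from 1.44 to 2.44 and Pdlim3 from 1.21 to 2.08 on the log2 scale. No paired analysis was possible because each group has 1 array, and for the same reason no array could be left out. Dim genes such as Actg1, Vasp, Cfl2, Pdlim3 and Pdlim7 lie near background in CON, where the correction sets the size of the ratio.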
